A study of Mus musculus with 16 samples.

Results

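Complement and coagulation factors are plasma proteins that the liver makes and secretes, and 39 of their genes were followed here across liver RNA from mice that differed in sex and in a cytochrome P450 genotype. The members were the rows of the raw count table whose symbol in the first column was 1 of these 39 genes, 19 of complement and 20 of coagulation, out of 41585 rows. All 39 passed the filter on low counts that left 13470 tested genes. The 16 libraries came from C57BL/6 mice, which all received a high-fat diet (60% fat) over 16 weeks, and the question of the series is the role of human CYP2B6 in obesity from such a diet. The groups were Cyp2b-null females, hCYP2B6-Tg females, Cyp2b-null males and hCYP2B6-Tg males, with 4 libraries in each. The first genotype is without mouse Cyp2b genes and the second has a transgene of human CYP2B6. CYP2B6 encodes a liver enzyme that oxidises drugs, steroids and fatty acids. The sources used here do not give which Cyp2b genes are missing, whether hCYP2B6-Tg mice also lack them, or which promoter drives the transgene. The labels do not say that each library is a separate animal, so p-values reflect only how far libraries of a group differ, and that spread may be technical.

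Complement is a cascade of proteases and binding proteins that marks microbes and damaged cells. Lectins such as Mbl1 and Mbl2 or the C1 complex start it, C3 is its hub, and C5 (the gene Hc in mice) to C9 assemble into the pore of the membrane attack complex. Coagulation is a cascade of proteases that ends with thrombin cutting fibrinogen into fibrin, held in check by antithrombin and the protein C system and undone by plasmin. Hepatocytes are the main source of most of these proteins.

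Library totals were 5584587 to 9672708 counts, levels are given as CPM, the counts of a gene scaled to a common library total, and a count of 0 in a library allows up to 0.310 to 0.537 CPM by counting error alone. The hepatocyte markers Alb, Apoa1, Ttr, Serpina1a, Tat and Cps1 were high in every library, with a summed level of 96176 to 128589 CPM, and Xist and Ddx3y matched the labelled sex in all 16. Of all counts in a library, 3.13% to 4.71% fell on the 39 members, with complement at no more than 1.61% and coagulation at 2.11% to 3.10%. In bulk RNA, fewer cells of a type and less RNA per cell cannot be told apart.

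Per exon length (RPKM, mean over the 16 libraries), the fibrinogen chains and C3 stood at the top: Fgg had 1591, Fga 1384, C3 1280.5 and Fgb 1068 RPKM. Prothrombin (F2, 911 RPKM) and plasminogen (Plg, 811 RPKM) were also high. C2, the protease of the classical C3 convertase, was lowest with 6.21 RPKM, followed by Masp1 (12.4) and C4b (12.9). C3 alone made up 41.9% to 61.9% of the complement counts of a library, and the 3 fibrinogen chains 42.4% to 53.2% of the coagulation counts. Members were steady within groups: the median SD of log2 CPM within a group was 0.11 over the 39, with 0.13 in complement and 0.10 in coagulation. Over all tested genes it was 0.24, and over the 7890 with a mean of at least 10 CPM it was 0.17. These comparison sets were not matched to the members for level, and counting error adds more spread at low counts.

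Sex was tested within each genotype. In Cyp2b-null livers 11 of 39 members differed between females and males (7.52% of all tested genes did), with 5 higher in females (3.57% of genes) and 6 lower (3.95% of genes). In hCYP2B6-Tg livers 16 of 39 differed (10.3% of genes), with 11 higher in females (4.69% of genes) and 5 lower (5.56% of genes). The shares are over genes not matched to the members for level or spread. Members were also chosen with earlier results of these data known. Every member that passed as lower in females belonged to complement. Of the 20 coagulation members 0 passed as lower in females in either genotype, which is near the 3.95% and 5.56% of all tested genes. The median log2 difference of females from males was 0.15 over coagulation and -0.04 over complement in Cyp2b-null livers, against 0.0046 over all tested genes. In hCYP2B6-Tg livers it was 0.19, 0.0050 and 0.02 in the same order. Passing in both genotypes were 5 members lower in females (2.52% of genes), C6, C8a, C8b, C9 and C4bp, and 5 higher in females (1.91% of genes), Mbl2, Cfb, Cfi, F10 and Serpinc1. Without null_female 1, null_female 3 and tg_male 4, which an earlier look at these data had put in doubt, 7 members passed in Cyp2b-null livers (2 higher and 5 lower) and 14 in hCYP2B6-Tg livers (9 and 5). The library null_male 4, which stayed in that fit, stood out for some bile duct and pancreas genes. Krt19 was at 38.9 CPM there against at most 1.61 CPM elsewhere, Epcam at 9.93 against 2.90 and Ctrb1 at 22.9 against 0.104. Sox9 and Spp1 were not highest there, and Cpa1, Pnlip and Clps had no counts in any library. Calls that ended without null_male 4 are given further on. The part of such tissue in the calls was not tested.

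**Figure D1:**
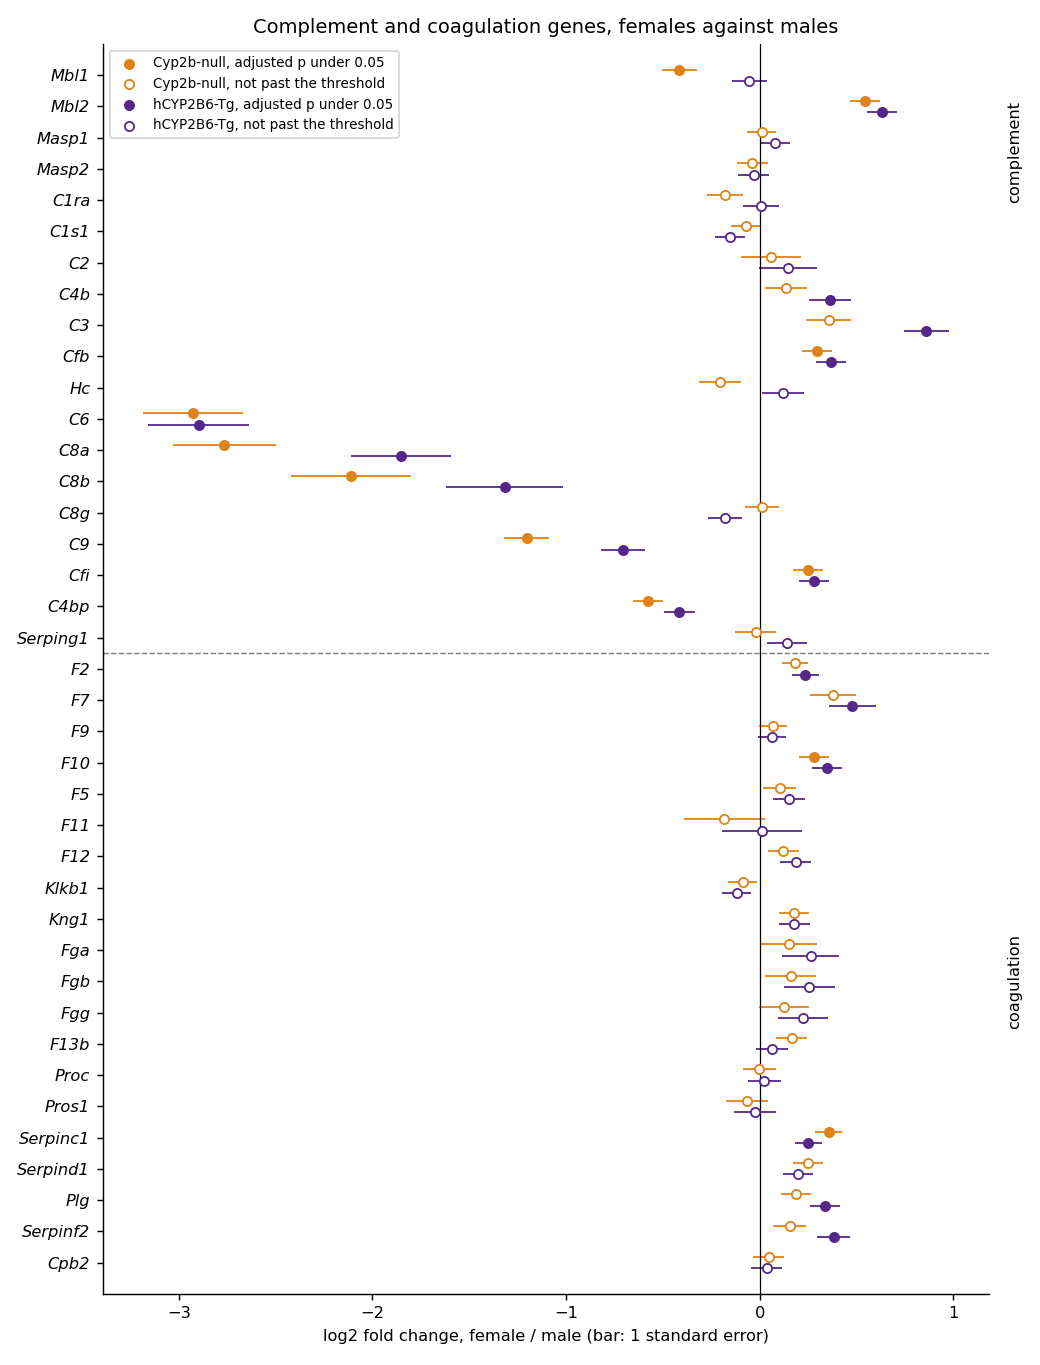
Log2 fold change of females over males for each of the 39 members (x axis) in Cyp2b-null and in hCYP2B6-Tg livers, with bars of 1 standard error and filled points at an adjusted p under 0.05. C6, C8a, C8b and C9 lie far to the left in both genotypes, and no coagulation gene has a filled point to the left of 0.

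The terminal pathway held the members with the largest sex differences. C6, which binds the C5 fragment C5b and begins the pore, had 26.5, 15.7, 14.5 and 18.3 CPM in the 4 Cyp2b-null females and 96.2, 150.2, 164 and 154 CPM in the 4 males. In hCYP2B6-Tg livers C6 had 13.4, 14.9, 13.8 and 20.1 CPM in females and 94.8, 144, 80.0 and 146 CPM in males. The lowest male library was thus above the highest female library in both genotypes. C6 was 7.60-fold lower in Cyp2b-null females (log2 -2.93 ± 0.26, adjusted p = 3.83e-06) and 7.45-fold lower in hCYP2B6-Tg females (log2 -2.90 ± 0.26, adjusted p = 5.1e-06).

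C8a and C8b encode the alpha and beta chains of C8, the component that inserts into the membrane. C8a had 55.1, 97.6, 71.3 and 107 CPM in Cyp2b-null females and 409.9, 546, 746 and 553 CPM in males. In hCYP2B6-Tg livers the values were 93.5, 90.1, 165 and 155 CPM in females and 445, 422, 422 and 526 CPM in males. All male libraries were again above all female libraries, by 6.80-fold on average in Cyp2b-null livers (log2 -2.76 ± 0.27, adjusted p = 1.49e-05) and 3.61-fold in hCYP2B6-Tg livers (log2 -1.85 ± 0.26, adjusted p = 0.000387). C8b had 29.7, 60.3, 41.6 and 65.6 CPM in Cyp2b-null females and 163, 203, 255 and 235 CPM in males. In hCYP2B6-Tg livers C8b had 61.1, 47.2, 91.1 and 88.0 CPM in females and 205, 177, 105 and 228 CPM in males. The lowest male library was tg_male 4 (105 CPM), and the highest female library had 91.1 CPM. C8b was lower in females by 4.32-fold (log2 -2.11 ± 0.31, adjusted p = 0.000743) and 2.49-fold (log2 -1.32 ± 0.30, adjusted p = 0.0142) in the same order of genotypes.

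C8a and C8b are neighbours on chromosome 4 (GRCm38.p6), C8b at 104766317 to 104804548 on the plus strand and C8a at 104815679 to 104876487 on the minus strand. Their 3' ends face each other across 11.1 kb. The ratio of C8a to C8b CPM within a library was 1.53 to 1.91 in the 8 female libraries and 2.17 to 4.01 in the 8 male libraries, with the highest in tg_male 4. C8g, the gamma chain of the same protein, lies on chromosome 2 and did not pass by sex: females had 327, 364, 343 and 372 CPM in Cyp2b-null and 312, 368, 291 and 279 CPM in hCYP2B6-Tg livers, and males 331, 314, 367 and 384 and 371, 355, 331 and 358 CPM. Its log2 difference was 0.01 ± 0.09 in Cyp2b-null and -0.18 ± 0.09 in hCYP2B6-Tg livers (adjusted p = 0.970 and 0.224).

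C9, which polymerises to form the pore, had 159.8, 182, 191 and 193 CPM in Cyp2b-null females and 352, 397, 534 and 390.0 CPM in males. The hCYP2B6-Tg values of C9 were 192, 233, 187 and 237 CPM in females and 310.5, 351, 333 and 391 CPM in males. The groups did not overlap in either genotype, and C9 was lower in females by 2.30-fold (log2 -1.20 ± 0.12, adjusted p = 1.3e-07) in Cyp2b-null and by 1.63-fold (log2 -0.71 ± 0.11, adjusted p = 0.000171) in hCYP2B6-Tg livers. C6 and C9 both lie on chromosome 15, 1641 kb apart. Hc, the gene of C5 that feeds this pathway, did not pass (log2 -0.21 ± 0.11 and 0.12 ± 0.11, adjusted p = 0.298 and 0.557). C7, which is no member, was near 0 in every library, with at most 0.576 CPM.

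**Figure D2:**
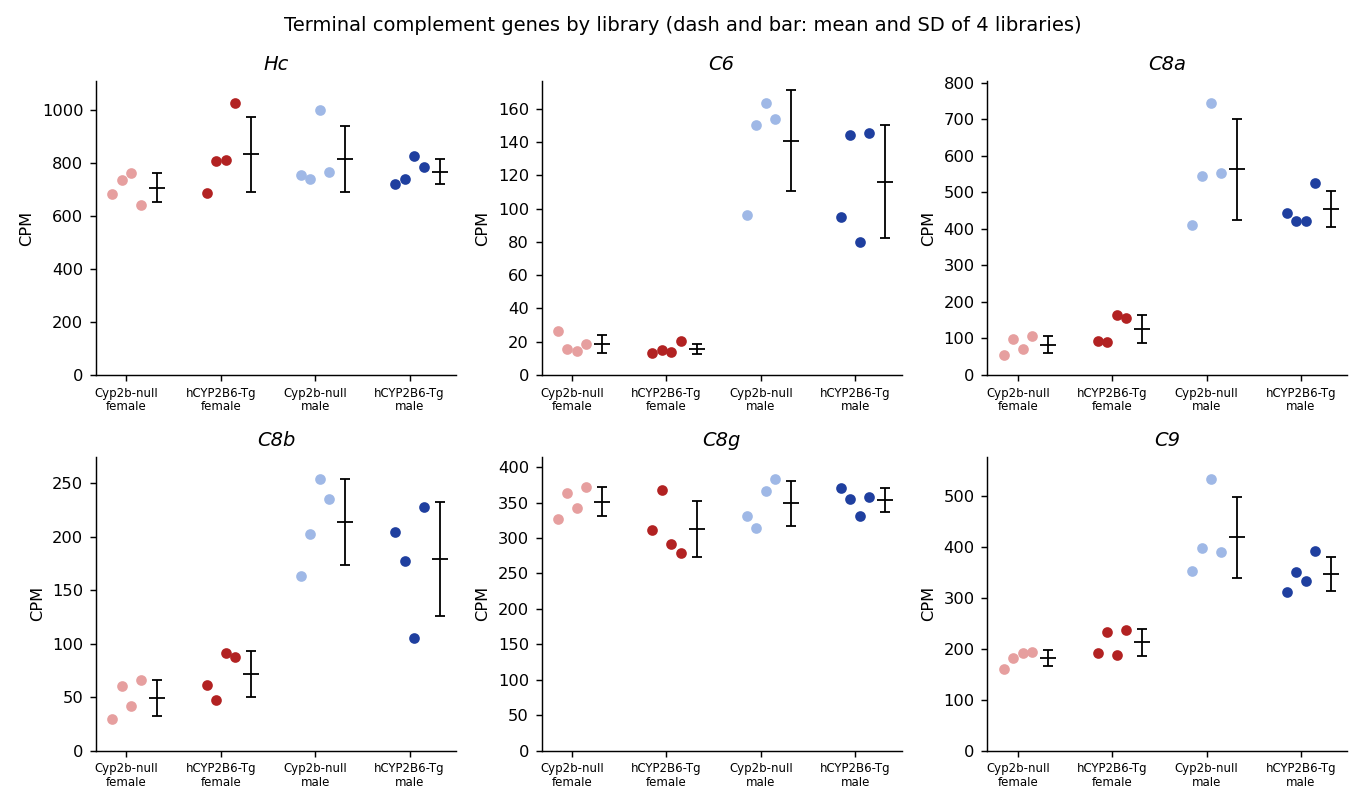
CPM of the 6 terminal complement genes in each of the 16 libraries (y axes start at 0), with the mean and SD of each group of 4. C6, C8a, C8b and C9 are higher in every male than in every female library of the same genotype, and Hc and C8g overlap between the sexes.

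Promoter windows were looked up because 5 genes were higher in males in both genotypes. RefSeq windows on GRCm38.p6 covering the 250 bases before a transcript start were matched by symbol for 30 of the 39 members (32 windows). The letters searched on both strands were TTCNNNGAA (the STAT motif, used by the growth hormone pathway that sets sex differences in liver), ATCAAT (HNF6 and CUX2) GTTAAT (a part of the longer HNF1 motif), the full HNF1 motif, the HNF4 motif and TTGCNNAA (C/EBP). The 6 windows that follow are those of the male-high genes and, for comparison, C8g. Serpinc1, which was higher in females, is shown with them. Bases within the annotated gene are left out, matches to TTCNNNGAA, ATCAAT and GTTAAT are in capitals, and positions count from -1 at the base before the transcript start. C6 is from chr15:4726960-4727066 (plus strand), C8a from chr4:104876488-104876648 (minus strand), C8b from chr4:104766067-104766316 (plus strand) and C9 from chr15:6445096-6445326 (plus strand). C4bp is from chr1:130661658-130661868 (minus strand), C8g from chr2:25501778-25501969 (minus strand) and Serpinc1 from chr1:160978333-160978582 (plus strand).
C6: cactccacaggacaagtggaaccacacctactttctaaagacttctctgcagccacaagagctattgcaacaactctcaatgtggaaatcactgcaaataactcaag
C8a: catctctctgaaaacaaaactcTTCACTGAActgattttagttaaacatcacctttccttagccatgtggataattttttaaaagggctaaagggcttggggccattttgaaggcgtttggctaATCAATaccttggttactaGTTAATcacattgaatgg
C8b: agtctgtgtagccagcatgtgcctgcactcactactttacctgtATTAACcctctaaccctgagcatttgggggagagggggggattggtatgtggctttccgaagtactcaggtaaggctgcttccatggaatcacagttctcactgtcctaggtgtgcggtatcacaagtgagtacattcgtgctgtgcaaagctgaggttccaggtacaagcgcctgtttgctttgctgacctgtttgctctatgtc
C9: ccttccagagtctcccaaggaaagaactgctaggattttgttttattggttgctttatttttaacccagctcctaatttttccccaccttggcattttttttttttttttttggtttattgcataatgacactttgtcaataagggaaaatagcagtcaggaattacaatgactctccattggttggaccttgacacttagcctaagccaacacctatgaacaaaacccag
C4bp: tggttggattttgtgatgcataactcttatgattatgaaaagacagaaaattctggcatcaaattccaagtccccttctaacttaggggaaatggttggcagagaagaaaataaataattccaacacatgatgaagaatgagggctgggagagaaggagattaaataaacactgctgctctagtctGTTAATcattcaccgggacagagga
C8g: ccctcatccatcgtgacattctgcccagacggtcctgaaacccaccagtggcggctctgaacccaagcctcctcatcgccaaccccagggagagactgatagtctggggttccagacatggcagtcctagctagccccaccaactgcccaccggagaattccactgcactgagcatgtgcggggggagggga
Serpinc1: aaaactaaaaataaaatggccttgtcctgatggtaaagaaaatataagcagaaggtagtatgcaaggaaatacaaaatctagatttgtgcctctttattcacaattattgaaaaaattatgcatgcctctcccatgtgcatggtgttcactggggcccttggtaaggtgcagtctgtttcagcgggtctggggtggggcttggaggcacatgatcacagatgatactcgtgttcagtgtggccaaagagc

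The C8a window held 3 of the 6 motifs, TTCNNNGAA from base -228, ATCAAT from base -126 and GTTAAT from base -107. GTTAAT was also found in C8b from base -206 (as its reverse complement) and in C4bp from base -64, so that 3 of the 5 male-high genes held it. It was in 0 of the 3 female-high genes with a window (Mbl2, F10 and Serpinc1), in 5 of the 22 other members with a window, and in 6.43% of 32851 mouse promoter windows of the same length. TTCNNNGAA was in 1 of the 5 male-high genes, 5 of the 22 others and 7.02% of all windows, and ATCAAT in 1 of 5, 4 of 22 and 6.72%. TTGCNNAA was in 1 of the 5, C9 (from base -132), in 0 of the 3 female-high genes, in 7 of the 22 others and in 9.56% of all windows. The full HNF1 motif and the HNF4 motif were in 0 of the 30 members with a window (0.00913% and 0.384% of all windows). C6 held none of the 6, also in the part of the window not printed. A match describes letters only, and binding was not measured.

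Complement regulators and lectins moved in both directions. C4bp, a cofactor for the breakdown of C4b and C3b, had 169.6, 171, 159 and 183 CPM in Cyp2b-null females and 238, 254, 280.0 and 246 CPM in males. Its hCYP2B6-Tg values were 174, 175, 199 and 181 CPM in females and 222, 241, 249 and 259.5 CPM in males. C4bp was lower in every female library, with log2 -0.58 ± 0.08 in Cyp2b-null (adjusted p = 1.73e-05) and -0.42 ± 0.08 in hCYP2B6-Tg livers (adjusted p = 0.000897). Cfi, the protease that cuts C4b and C3b, was higher in females instead, with 770.0 ± 39.8 against 647 ± 56.4 CPM (SD, n = 4) in Cyp2b-null and 799.8 ± 54.7 against 658 ± 20.8 CPM in hCYP2B6-Tg livers. Its log2 difference was 0.25 ± 0.08 (adjusted p = 0.0469) and 0.28 ± 0.08 (adjusted p = 0.0192), and null_male 3 overlapped the Cyp2b-null females. Serping1, the C1 inhibitor, did not pass in either genotype (adjusted p = 0.940 and 0.457).

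Mbl2, a mannose-binding lectin that starts the lectin pathway, had 576, 651, 581 and 606 CPM in Cyp2b-null females and 440.0, 428, 396 and 393 CPM in males. For hCYP2B6-Tg livers the values were 636, 664, 679.8 and 564 CPM in females and 425, 436, 396 and 385 CPM in males. Every female library was above every male library, with log2 0.54 ± 0.08 (adjusted p = 3.38e-05) and 0.63 ± 0.08 (adjusted p = 4.16e-06). The related lectin Mbl1 had 149, 149.7, 158 and 168 CPM in Cyp2b-null females and 177, 204, 250.3 and 202 CPM in males, and was lower in those females (log2 -0.42 ± 0.09, adjusted p = 0.00418). In hCYP2B6-Tg livers Mbl1 overlapped between the sexes, with 164 to 189 CPM in females and 166 to 193 CPM in males (log2 -0.05 ± 0.09, adjusted p = 0.780). The ratio of Mbl2 to Mbl1 CPM was 3.44 to 4.35 in the 8 female and 1.58 to 2.56 in the 8 male libraries. Masp1 and Masp2, the proteases that these lectins carry, did not pass, with log2 differences between -0.04 and 0.08.

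C3, cut by every complement pathway, had 8338, 6831, 7733 and 6031 CPM in Cyp2b-null females and 5543, 4815, 7127 and 5138 CPM in males. In hCYP2B6-Tg livers it had 7211, 8858, 9081 and 9450.4 CPM in females and 5167, 4627, 4899 and 4372 CPM in males. The groups overlapped in Cyp2b-null livers, where null_male 3 was above 2 of the females, and did not overlap in hCYP2B6-Tg livers. The log2 difference was 0.35 ± 0.12 in Cyp2b-null livers (adjusted p = 0.0712) and 0.86 ± 0.12 in hCYP2B6-Tg livers (adjusted p = 3.17e-05). In the Cyp2b-null comparison C3 passed without null_male 3 (adjusted p = 0.00588), without null_female 5 (0.0272) or without tg_female 1 (0.0498).

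Cfb, the protease of the alternative pathway, had 548, 568, 567 and 508 CPM in Cyp2b-null females and 435, 415, 516 and 417 CPM in males, of which null_male 3 lay within the female range. In hCYP2B6-Tg livers it had 513, 559, 539.7 and 572 CPM in females and 428, 417, 431 and 414 CPM in males, which did not overlap. Cfb was higher in females by log2 0.30 ± 0.08 (adjusted p = 0.0164) and 0.37 ± 0.08 (adjusted p = 0.00244). C4b, the classical component C4, passed in hCYP2B6-Tg livers (log2 0.36 ± 0.11, adjusted p = 0.0316) and missed the threshold in Cyp2b-null livers (log2 0.14 ± 0.11, adjusted p = 0.536). Reads of C4b can be shared with its near copy C4a, and those of C1ra and C1s1 with C1rb and C1s2, so the level of each is uncertain. C1ra, C1s1 and C2 did not pass in either genotype.

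**Figure D3:**
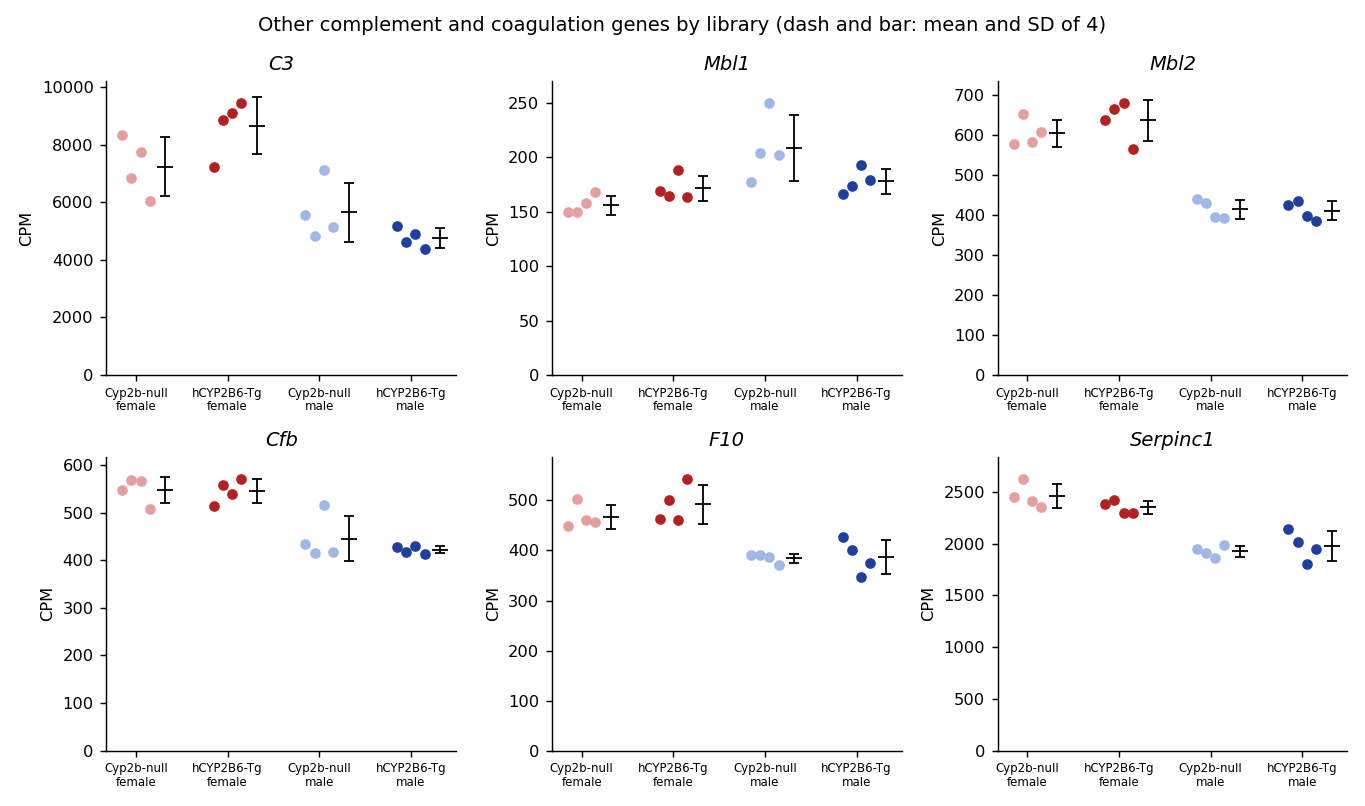
CPM of C3, Mbl1, Mbl2, Cfb, F10 and Serpinc1 in each of the 16 libraries (y axes start at 0), with the mean and SD of each group of 4. Mbl2, F10 and Serpinc1 are higher in every female than in every male library of the same genotype, and null_male 3 is the highest Cyp2b-null male for C3, Mbl1 and Cfb.

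In coagulation 2 of 20 members passed by sex in Cyp2b-null livers (7.52% of all tested genes did) and 6 of 20 in hCYP2B6-Tg livers (10.3% of genes). All of them were higher in females (3.57% and 4.69% of genes), and 14 passed in neither. Estimates below 0 belonged to members that did not pass, with F11 at log2 -0.18 ± 0.21 and Klkb1 at -0.09 ± 0.08 in Cyp2b-null livers and Klkb1 at -0.12 ± 0.08 in hCYP2B6-Tg livers among them. Serpinc1 (antithrombin, the main inhibitor of thrombin and factor Xa) had 2451, 2628, 2411 and 2354 CPM in Cyp2b-null females and 1944, 1904, 1860.4 and 1985 CPM in males. The hCYP2B6-Tg libraries had 2385, 2422, 2291 and 2295 CPM in females and 2141, 2015, 1801 and 1945 CPM in males. All females were above all males, with log2 0.36 ± 0.07 (adjusted p = 0.00159) and 0.25 ± 0.07 (adjusted p = 0.0229).

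F10, the protease that makes thrombin, had 448, 502, 462 and 457 CPM in Cyp2b-null females and 390.0, 390.0, 387 and 371 CPM in males. In hCYP2B6-Tg livers it had 464, 502, 461 and 544 CPM in females and 426, 401, 347 and 374 CPM in males. The sexes did not overlap in either genotype, and the log2 differences were 0.28 ± 0.08 (adjusted p = 0.0261) and 0.35 ± 0.08 (adjusted p = 0.00468). F7, which starts coagulation with tissue factor and lies next to F10 on chromosome 8, was higher in hCYP2B6-Tg females (log2 0.48 ± 0.12, adjusted p = 0.0108). Its male values there were 100.025, 67.9, 63.5 and 79.4 CPM, of which tg_male 2 lay within the female range of 98.4 to 116 CPM. In Cyp2b-null livers F7 did not overlap between the sexes (86.4 to 117 against 67.7 to 85.5 CPM) and just missed the threshold (log2 0.38 ± 0.12, adjusted p = 0.0570). It passed there without null_female 1 (adjusted p = 0.0255), tg_male 2 (0.0226) or tg_male 4 (0.0378). F7 also passed there with DESeq2 (0.0496), and with edgeR without a filter on low counts (0.0401) or with only the groups compared (0.0424).

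Passing in hCYP2B6-Tg livers were also F2 (prothrombin, log2 0.24 ± 0.07, adjusted p = 0.0288), Plg (log2 0.34 ± 0.08, 0.00484) and Serpinf2 (log2 0.38 ± 0.08, 0.00416), the inhibitor of plasmin. Plg had 2274, 2535, 2573 and 2690.4 CPM in hCYP2B6-Tg females and 2159, 1924, 1883 and 2007 CPM in males, and Serpinf2 744, 869, 878 and 883 CPM and 707, 631, 625 and 628 CPM. Neither overlapped between the sexes. In Cyp2b-null livers the same genes were at log2 0.18 ± 0.07 (F2, adjusted p = 0.122), 0.19 ± 0.08 (Plg, 0.154) and 0.16 ± 0.08 (Serpinf2, 0.321). Whether the sex difference of a member differs between the genotypes is the same contrast as the difference of the genotype effects between the sexes, which no member passed (values further on). Serpind1 (heparin cofactor II) missed the threshold in Cyp2b-null livers, with log2 0.25 ± 0.08 and adjusted p = 0.0545. It passed without tg_female 5 (0.0487) or tg_male 4 (0.0255). With no library left out Serpind1 passed there with DESeq2 (adjusted p = 0.0219) and limma voom (0.0476). With edgeR it passed when scaled by library totals only (0.0318) or without ribosomal RNA rows (0.0484).

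The fibrinogen chains Fga, Fgb and Fgg, neighbours on chromosome 3, did not pass by sex. Their log2 differences were 0.15, 0.16 and 0.12 in Cyp2b-null and 0.26, 0.26 and 0.22 in hCYP2B6-Tg livers, with standard errors of 0.13 to 0.15. The contact system (F11, F12, Klkb1 and Kng1), F5, F9, F13b, Proc, Pros1 and Cpb2 did not pass in either genotype either. F9, on the X chromosome, was at log2 0.07 ± 0.07 and 0.06 ± 0.07. Counting members whose 4 female and 4 male libraries did not overlap, 8 were higher in Cyp2b-null females (5.66% of genes), of which 7 were coagulation genes, and 6 lower (6.64% of genes). In hCYP2B6-Tg livers these were 10 (7.41% of genes), of which 5 were coagulation genes, and 5 (8.2% of genes).

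Several of the smaller sex differences were close to the threshold, and leaving out 1 library moved their adjusted p past it while no estimate among these calls changed by as much as 1.5 times. In Cyp2b-null livers Cfi missed the threshold when any 1 of null_female 1, 3 or 5, tg_female 2, null_male 1, 2 or 4, or tg_male 2, 3 or 5 was left out (adjusted p = 0.0541 to 0.132). F10 missed it without null_female 3 or null_male 2, 3 or 4 (0.0554 to 0.0812), and Cfb without null_male 2 or 4 (0.0691 and 0.0724). In hCYP2B6-Tg livers F2 missed it without tg_female 2, 4 or 5 or tg_male 3, 4 or 5 (0.0530 to 0.0953), and Serpinc1 without tg_female 2 or tg_male 3, 4 or 5 (0.0505 to 0.0866). C4b missed it without tg_female 2, 4 or 5 or tg_male 3 or 5 (0.0530 to 0.135), and Cfi without tg_female 4 or 5 or tg_male 3 or 5 (0.0510 to 0.0710). C6, C8a, C8b, C9, C4bp and Mbl2 passed in both genotypes under each of the 27 alternative settings.

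Other genes of the same pathways, with some further plasma protein genes such as Ahsg, came from a list of 61, of which 48 were tested. Of the 24 tested complement genes outside the members, 4 were higher and 1 lower in Cyp2b-null females (3.57% and 3.95% of genes). In hCYP2B6-Tg females 3 were higher and 2 lower (4.69% and 5.56% of genes). C1qb, a chain of C1q that macrophages make, was higher in both (log2 0.52 ± 0.11 and 0.34), as was Vsig4, a complement receptor of Kupffer cells (log2 0.90 ± 0.13 and 0.58 ± 0.13). C1qa (log2 0.53 ± 0.14) and C1qc (log2 0.53 ± 0.13) passed in Cyp2b-null livers, and Cfp, properdin, in hCYP2B6-Tg livers (log2 0.99 ± 0.25). In the Kupffer cell list 4 of 8 genes were higher in Cyp2b-null females (3.57% of genes), and 0 were lower. In hCYP2B6-Tg females 1 of 8 was higher (4.69% of genes), Vsig4 itself, and 0 were lower. Vsig4 and C1qa, 2 of these 8, are also among the complement genes just named, so the lists are not separate. With both genes in it, the summed level of the Kupffer cell list was 438 to 742 CPM in Cyp2b-null females and 314 to 482 CPM in males. In hCYP2B6-Tg livers it was 460 to 611 CPM against 359 to 437 CPM. The stellate cell list had 1 of 6 genes higher in females of both genotypes (1.91% of genes), Ecm1. The summed level of that list was 409 to 463 CPM in Cyp2b-null females and 299 to 390 CPM in males. In hCYP2B6-Tg livers it was 385 to 440 against 323 to 361 CPM. In the hepatocyte list 1 of 6 genes, Alb, was higher in Cyp2b-null females (3.57% of genes). Ttr, also 1 of 6, was lower in hCYP2B6-Tg females (5.56% of genes). The summed level of the hepatocyte list was 105503 to 128589 CPM in Cyp2b-null females and 96176 to 102135 CPM in males. In hCYP2B6-Tg livers it was 103510 to 123537 against 102452 to 110012 CPM. Alb made up most of that sum, with 88901 to 111125 CPM in Cyp2b-null females and 77688 to 83388 CPM in males. Over the 6 genes the median log2 difference of females from males was 0.17 in Cyp2b-null and 0.0088 in hCYP2B6-Tg livers. The part of these lists in the sex differences of the members and other pathway genes was not tested.

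Cfd, factor D, was the complement gene outside the members with the largest sex difference, and adipocytes are its known main source. The 4 Cyp2b-null females had 3 counts in all against 336 in males, a ratio of 125 after scaling (95% counting interval 42.3 to 607). In hCYP2B6-Tg livers the sums were 3 and 424 counts, a ratio of 138 (46.9 to 672), and 72.3 (24.3 to 355) without tg_male 4. Lep, Adipoq and Plin1, defining genes of adipocytes, were near 0, with Lep at 0 in 15 of 16 libraries and Adipoq at 0 in 12. Of the 5 adipocyte genes, which include Cfd and Fabp4, 2 were tested and 1, Cfd itself, was lower in females of both genotypes. Their summed level was 3.12 to 8.75 CPM in Cyp2b-null females, 9.47 to 24.9 CPM in Cyp2b-null males, 3.73 to 6.81 CPM in hCYP2B6-Tg females and 8.40 to 43.8 CPM in hCYP2B6-Tg males. Cfd is itself in that sum, with 4.19 to 18.4 CPM in Cyp2b-null males, 5.04 to 29.9 CPM in hCYP2B6-Tg males and at most 0.313 CPM in females. Fabp4 overlapped between the sexes, with 3.12 to 8.44 against 5.01 to 9.21 CPM in Cyp2b-null livers. In hCYP2B6-Tg livers Fabp4 had 3.49 to 6.36 CPM in females and 3.36 to 13.8 CPM in males. The part of adipocytes in the sex difference of Cfd was not tested. Cfhr2 was lower in hCYP2B6-Tg females (log2 -0.26 ± 0.08).

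Of the 24 tested genes on the coagulation list, 4 were higher and 2 lower in Cyp2b-null females (3.57% and 3.95% of genes). In hCYP2B6-Tg females 4 were higher and 3 lower (4.69% and 5.56% of genes). Ahsg (fetuin-A), a plasma protein gene on the list that encodes no coagulation factor, was higher in females of both genotypes. Its log2 difference was 0.47 ± 0.08 in Cyp2b-null and 0.64 ± 0.08 in hCYP2B6-Tg livers. Hgfac (HGF activator) was higher by log2 0.45 ± 0.09 and 0.33 ± 0.09, and Habp2, a protease that activates factor VII, by 0.33 ± 0.08 and 0.30 ± 0.08. Mcfd2, which carries factors V and VIII out of the endoplasmic reticulum, passed in Cyp2b-null livers (log2 0.30 ± 0.08), and Ggcx, the vitamin K-dependent carboxylase, in hCYP2B6-Tg livers (log2 0.38 ± 0.12). Lower in females of both genotypes were Serpine2, an inhibitor of thrombin (log2 -1.27 ± 0.28 and -1.34 ± 0.28), and Vkorc1l1, a paralogue of the vitamin K reductase (log2 -0.32 ± 0.09 and -0.30 ± 0.09). F2r, a thrombin receptor, was lower in hCYP2B6-Tg females (log2 -0.94 ± 0.16).

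Genotype was tested within each sex. In females 0 of 39 members passed with edgeR (0% of tested genes did), and DESeq2 and limma voom called 0 members as well. At an unadjusted p under 0.05 there were 3 members (7.59% of genes), all of complement. The median log2 difference was 0.07 over the members, 0.10 over complement and 0.03 over coagulation, against 0.0016 over all tested genes. An estimate above 0 was found for 29 of 39 members and 50.4% of genes.

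The 3 complement genes with the smallest p in females were C8a, Hc and C3. C8a had 55.1, 97.6, 71.3 and 107 CPM in Cyp2b-null and 93.5, 90.1, 165 and 155 CPM in hCYP2B6-Tg females, a log2 difference of 0.60 ± 0.26 (adjusted p = 0.625). Hc had 682, 737, 764 and 643 CPM and 687, 808, 813 and 1027 CPM, with tg_female 5 highest (log2 0.24 ± 0.11, adjusted p = 0.627). Without tg_female 5 Hc was at log2 0.12 (adjusted p = 0.926). C3 was at log2 0.26 ± 0.12 (adjusted p = 0.628), with the values given above, which overlapped, as did those of C8a and Hc. For coagulation the smallest p belonged to Plg (log2 0.09 ± 0.08, adjusted p = 0.817), F9 (log2 0.09 ± 0.07, 0.823) and Serpinf2 (log2 0.09 ± 0.08, 0.858).

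In males 0 of 39 members passed with edgeR (0.111% of genes did), and 0 with DESeq2 and with limma voom. At an unadjusted p under 0.05 there were 3 (7.17% of genes). The median log2 difference was -0.02 over the members, -0.07 over complement and -0.0025 over coagulation, against -0.0043 over all tested genes, and 15 of 39 estimates were above 0 (49% of genes). Mbl1 had 177, 204, 250.3 and 202 CPM in Cyp2b-null and 166, 174, 193 and 179 CPM in hCYP2B6-Tg males (log2 -0.23 ± 0.09, adjusted p = 0.577). C9 was at log2 -0.27 ± 0.11 (adjusted p = 0.603) and C3 at -0.25 ± 0.12 (0.688). In all 3 genes null_male 3 was the highest Cyp2b-null male library, and the groups overlapped. Without null_male 3 the log2 differences were -0.13 (Mbl1), -0.13 (C9) and -0.11 (C3), with adjusted p = 0.839, 0.856 and 0.896. Serpinf2 (log2 -0.14 ± 0.08, adjusted p = 0.784), F13b (0.12 ± 0.08, 0.819) and F9 (0.09 ± 0.07, 0.859) had the smallest p in coagulation. In neither sex was there a member whose genotype groups did not overlap (3.5% of genes in females and 4.77% in males).

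**Figure D4:**
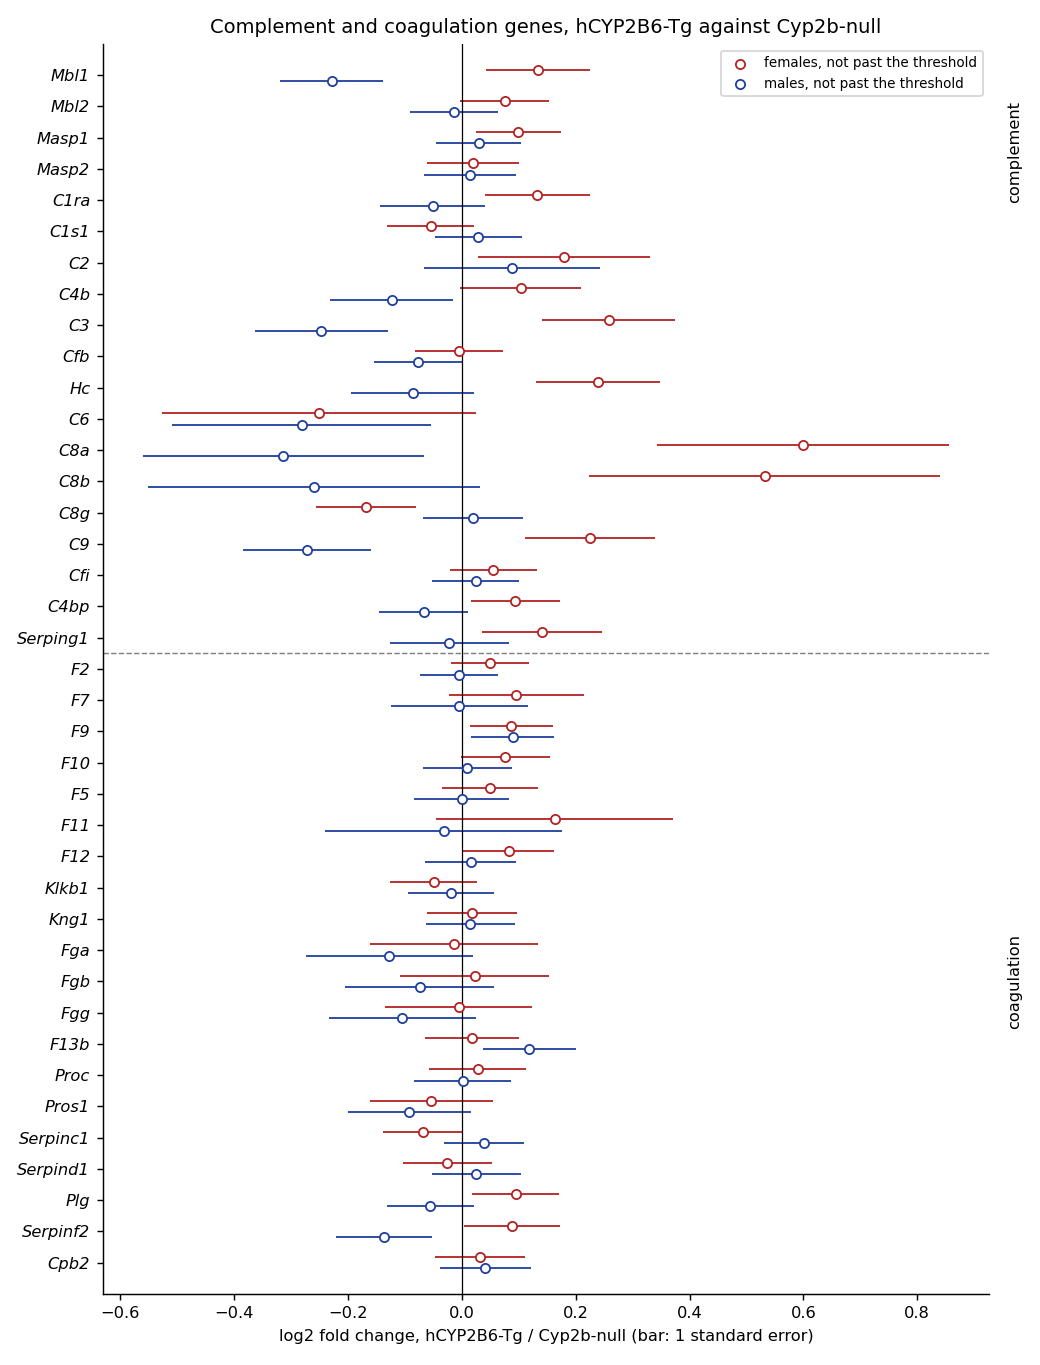
Log2 fold change of hCYP2B6-Tg over Cyp2b-null for each of the 39 members (x axis) in females and in males, with bars of 1 standard error. No point is filled, since no member had an adjusted p under 0.05, and C6, C8a and C8b have the widest bars.

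The genotype effect in males minus that in females is also the sex difference (females over males) in Cyp2b-null livers minus that in hCYP2B6-Tg livers. With edgeR 0 of 39 members passed this test (0.0445% of genes did), as with DESeq2 and limma voom, and 5 had an unadjusted p under 0.05 (7.7% of genes), all of complement. C9 had the smallest p (log2 -0.50 ± 0.16, adjusted p = 0.435), followed by C3 (log2 -0.50 ± 0.17, adjusted p = 0.457) and Mbl1 (log2 -0.36 ± 0.13, 0.476). C8a had the largest estimate (log2 -0.91 ± 0.36, adjusted p = 0.582), and Hc was at -0.33 ± 0.15 (0.632). In coagulation Serpinf2 (log2 -0.23 ± 0.12, adjusted p = 0.669), Plg (-0.15 ± 0.11, 0.788) and Serpinc1 (0.11 ± 0.10, 0.849) had the smallest p. The estimate was above 0 for 2 of 19 complement and 6 of 20 coagulation members (48.6% of genes), with a median of -0.16 and -0.05 against -0.0085 over all tested genes. For C6 the estimate was -0.03 ± 0.36, so the log2 sex differences of C6 in the 2 genotypes were within 1 standard error of each other.

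Of the other pathway genes 0 of 48 passed in any of these 3 comparisons with edgeR. Among those with the smallest p were Serpina10 in females (log2 0.24 ± 0.10, adjusted p = 0.604) and Plau, urokinase, in males (log2 0.96 ± 0.35, adjusted p = 0.536). In the difference between the sexes the smallest p belonged to Plau (log2 1.33 ± 0.51, adjusted p = 0.537) and Vwf (log2 1.26 ± 0.52, 0.582). Plau was low, with 1.81, 1.93, 0.676 and 1.30 CPM in Cyp2b-null males and 3.67, 3.08, 2.36 and 2.14 CPM in hCYP2B6-Tg males.

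Within groups, the highest value was in null_male 3 for 25 of 39 members (25.9% of all tested genes), in null_female 3 for 24 (27.6%), in tg_female 5 for 20 (26.9%) and in tg_male 2 for 18 (27.3%). The lowest value was in tg_female 1 for 19 of 39 members (28.5% of all tested genes), in tg_male 4 for 17 (25.4%), in null_male 1 for 15 (26.5%) and in null_female 1 for 14 (27.1%). Fibrinogen moved as a unit: Fga was high in tg_female 5 (5590 against 3932 to 4128 CPM in the other hCYP2B6-Tg females) and in tg_male 4 (4576 against 3387 to 3447 CPM). Fgb and Fgg followed, and the ratio of Fga to Fgb stayed between 0.926 and 1.10 over all 16 libraries. In null_male 3 Fga had 5290 CPM against 3274 to 3899 CPM in the other Cyp2b-null males, and C3, C9 and Hc were also highest there. In null_female 1 Fga had 5171 CPM against 4117 to 4389 CPM in the other Cyp2b-null females.

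The acute-phase gene Fgl1 was high in some of these libraries. It had 175, 195, 584 and 164 CPM in Cyp2b-null males 1 to 4, and 356, 464, 620.3 and 692 CPM in hCYP2B6-Tg females 1, 2, 4 and 5. Haptoglobin (Hp) had 2584, 2469.7, 3641 and 2456 CPM and serum amyloid A1 (Saa1) 18.8, 28.9, 79.3 and 13.8 CPM in the same males, with null_male 3 highest for both. In the hCYP2B6-Tg females 1, 2, 4 and 5 Hp had 1967, 2259, 2672 and 2402 CPM and Saa1 30.5, 23.9, 100.98 and 19.8 CPM, so that Saa1 was lowest and Hp below tg_female 4 in tg_female 5, where fibrinogen was highest. In tg_male 4 Fgl1 was at 292 CPM against 150 to 159 CPM in the other 3, and Saa1 at 52.6 CPM against 12.98 to 27.1 CPM. In null_female 1 Fgl1 was within the range of the other Cyp2b-null females (357 against 338 to 432 CPM), and in tg_female 4, where Fgl1 was high, Fga was the lowest of its group. The part of this response in the spread of the members was not tested.

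**Figure D5:**
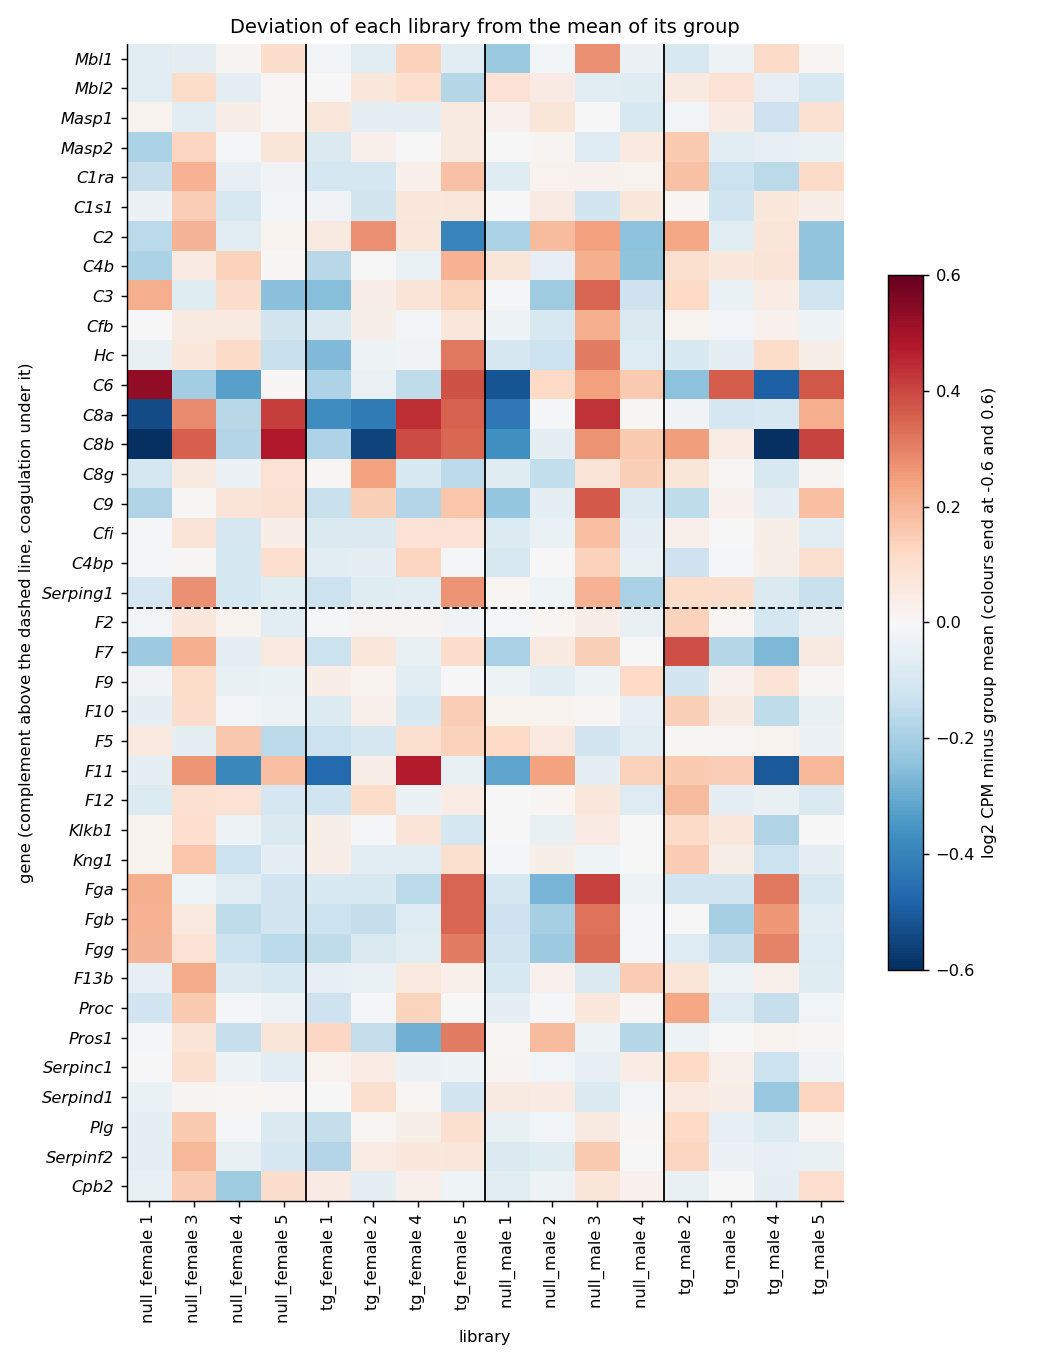
Log2 CPM of each of the 39 members in each library minus the mean of its group (colour scale, ending at -0.6 and 0.6), with groups separated by vertical lines. The fibrinogen chains are above their group mean together in tg_female 5, null_male 3 and tg_male 4, and C6, C8a, C8b and F11 have the deepest colours.

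C8a, C8b, C6 and F11 varied most between libraries of a group, with an SD of log2 CPM of 0.37, 0.45, 0.36 and 0.32. C8a and C8b were low together in null_female 1 (55.1 and 29.7 CPM) and tg_female 2 (90.1 and 47.2 CPM), and C6 was the highest of its group in null_female 1. In tg_male 4 C6 (80.0 CPM), C8b (105 CPM) and F11 (45.7 CPM) were the lowest of their group and C8a (422 CPM) was close to its neighbours. F11, a protease of the contact system, ranged from 44.8 to 90.2 CPM and did not pass in any comparison.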

How the data were processed

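RNA was sequenced from mouse liver (Trizol extraction and an NEB Next Ultra RNA kit, per the labels' protocols). The authors deposited raw read counts per gene. FastQC, Trimmomatic, GSNAP, Subread, edgeR and the build GRCm38.p6 are named in the submitters' processing notes, which do not give the strand setting or the treatment of multimapping reads. All 16 library columns were used, 0 columns of per-sample values were left out, and 3 empty columns were dropped.

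Counts of all 16 libraries in 4 groups were fitted with edgeR 4.0.16 (R 4.3.3; filterByExpr, TMM scaling, robust quasi-likelihood test), and p-values were adjusted by Benjamini-Hochberg over all 13470 tested genes, with a threshold of 0.05. Every adjusted p in the text is from this test unless another tool is named, and ± after a log2 difference is its standard error. DESeq2 1.42.0 and limma 3.58.1 (voom) were alternatives. RPKM used the exon lengths of GENCODE M21. The floor of a library is 3 counts and intervals are at 95%; both cover counting error only. The members and lists were chosen with earlier results of these data known. Members named were those past the threshold and otherwise those with the smallest p of each arm, and others were described after their values were seen. Of the other pathway genes, 2 that this rule names are not reported here. On simulated counts edgeR recovered 68.7% of 198 genes changed 2-fold among 13280 for genotype in males, with 7 false calls, and 49.5% of 198 for the difference of the genotype effects between the sexes, with 5.

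Replicate pairs differed by more than sampling noise (chi-square per degree of freedom 6.53 to 19.7 over 24 pairs). No motif search used the genome itself, and promoter windows came from RefSeq.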

Additional observations from a re-analysis of the deposited data

Results flagged for a closer look

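Each member was looked at in each group of 4 libraries for a single library far from the others, by Dixon's ratio of the gap to the range against its 95% critical value. Of 156 groups examined 21 stood out, where chance gives about 1 in 20, or 7.8, if genes are independent. Genes that move together in a library, such as the fibrinogen chains, are not independent. The share over all tested genes was not computed, so the count is not shown to be particular to the members.

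Among complement genes the libraries that stood apart were tg_male 2 for Masp2 (157 CPM against 134 to 136 in the others), null_male 1 for C1ra (213 against 227 to 228) and tg_male 5 for C4b (51.4 against 63.2 to 64.9). In null_male 3 Hc was at 999.6 CPM (740.0 to 768 in the others) and Cfi at 731 CPM (609.9 to 627). Serping1 was at 874 CPM in null_female 3 (673 to 688) and at 961 CPM in tg_female 5 (729 to 759).

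Fibrinogen was apart in 2 libraries. In tg_female 5 Fga had 5590 CPM (3932 to 4128), Fgb 5541 CPM (3941 to 4128) and Fgg 4315 CPM (3140 to 3335). In tg_male 4 Fga had 4576 CPM (3387 to 3447) and Fgg 3678 CPM (2718 to 2842).

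The other coagulation genes were F9 at 246 CPM in null_female 3 (221 to 225) and 237 CPM in null_male 4 (208 to 213), F10 at 371 CPM in null_male 4 (387 to 390.0) and F11 at 45.7 CPM in tg_male 4 (72.0 to 74.7). F12 had 427 CPM in tg_male 2 (353 to 363), F13b 348 CPM in null_female 3 (279 to 288) and Serpind1 701 CPM in null_female 1 (725 to 730.0). Serpinf2 had 744 CPM in tg_female 1 (869 to 883) and 707 CPM in tg_male 2 (625 to 631).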

How the results depend on the processing

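The number of members past the threshold for genotype was 0 in females and 0 in males under every alternative run, with 0 to 0 when single libraries were left out. For the difference of the genotype effects between the sexes it was 0 to 0 with single libraries left out and 1 under the replicate block (C8a, log2 -1.20, adjusted p = 0.0449). Replicate numbers were tested as pairs: the 12 correlations of deviations were -0.107 to 0.122, and in 3 of 12 pairs the library correlated best with its own number. The labels give nothing shared beyond the number, and so few pairs cannot decide whether a litter or batch was shared. Under the replicate block sex called 11 members in Cyp2b-null livers (Cfi lost, F7 gained) and 16 in hCYP2B6-Tg livers. Leaving out single libraries gave 8 to 13 in Cyp2b-null and 12 to 16 in hCYP2B6-Tg livers. Without null_female 1, null_female 3 and tg_male 4 together the first fell to 7, losing Mbl1 (adjusted p = 0.0659), Cfb (0.107), Cfi (0.208) and F10 (0.0973); fewer libraries entered that fit. Fitting only the groups compared ended the calls of Cfb (adjusted p = 0.0541) and Cfi (0.0911) in Cyp2b-null and of F2 (0.0795) and Serpinc1 (0.0657) in hCYP2B6-Tg livers. A filter of 1 CPM in 4 libraries ended that of Cfi in Cyp2b-null (0.0509), and no filter that of F2 in hCYP2B6-Tg livers (0.0633). DESeq2 gave 14 members in Cyp2b-null livers, with F2 (adjusted p = 0.0270), F7 (0.0496) and Serpind1 (0.0219) gained. No value changed sign while past the threshold. Over all genes edgeR, DESeq2 and limma voom called 0, 12 and 0 genes for genotype in females, 15, 47 and 11 in males and 6, 16 and 7 for the difference, and the replicate block called 2, 5 and 9; the cause was not tested. An alternative run with the older quasi-likelihood fit was added after seeing the data, and the main test did not use that fit. With 4 libraries per group, differences of members near the standard errors given, or several times as large, could go undetected. For the difference of the genotype effects between the sexes, C9 was at log2 -0.50 ± 0.16 and did not pass with edgeR (adjusted p = 0.435).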
